A study of Eptatretus atami with 13 samples.

Results

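Of the 37562 gene models annotated in the genome of the brown hagfish Eptatretus atami, 381 covered at least 300000 bp from the smallest exon start to the largest exon end. The long models described here are 379 of these, since EA21745 and EA23440 were left out by the rule that chose them, and they are compared with the 37183 other models. The rule used span and neither exon number, exon length nor level, although the models themselves were built from transcripts of these organs. Levels were measured by RNA sequencing in 13 libraries from wild-type animals, 1 each from brain, adipose tissue, ovary, gills, heart, gall bladder, kidney, skin, slime gland, intestine, blood cells, liver and skeletal muscle of the tongue. The labels give every sample a treatment field of normal embryonic development although all are organs, and they do not give the individuals, their age or their sex. With 1 library per organ no value has a replicate error, a difference between organs cannot be told apart from one between libraries, and no test was made between them.

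In vertebrates the length of a long gene lies mostly in its introns, the stretches that are transcribed and then spliced out, while the exons that remain in the messenger RNA add little. Several of the longest genes known in mammals act at synapses, in cell adhesion and in ion transport, and in mammals neurons are known for transcribing such genes. Synapses are the contacts through which neurons signal, and their building involves adhesion proteins, scaffolds and the machinery that releases vesicles.

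Assigned counts ranged from 18800367 to 39077785 per library, with a median of 26465723. Levels are given as FPKM, the counts divided by exon length in kilobases and by the library's assigned total in units of 1000000 counts. The library labelled adipose tissue held NEFM, the medium neurofilament chain of neurons, at 931 FPKM, against 899 FPKM in brain and at most 3.92 FPKM in the other libraries. ADIPOQ-1, named for the adipocyte hormone adiponectin, was at 0.337 FPKM there, and the other 2 adipocyte markers, GPD1 and CAVIN1-2, were highest in skeletal muscle. Over the 379 long models the adipose-labelled library and brain were the most alike pair (Pearson r of log2(FPKM + 1) = 0.986, across models of 2 libraries), followed by gills and skin (0.821). For the 244 long models at 5 FPKM or more in brain, the median ratio of the adipose-labelled library to brain was 1.06. Results on the organ of highest level are therefore given with and without the adipose-labelled library. Of the 3 striated muscle markers, MYL2-1 was at 1.40 FPKM in slime gland, against 28576 FPKM in skeletal muscle, TTN-2 at 2.42 FPKM against 5.73 FPKM, and NEB-1 at 49.4 FPKM against 0.00469 FPKM.

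The long models were split into many small exons. They had a median of 22 exons after overlapping exons of alternative transcripts were merged, with quartiles of 13 and 31, against a median of 3 in the other models. None had a single exon, against 41.6% of the other models, and 334 of the 379 (88.1%) had at least 10 exons, against 17.6%. Their exons summed to a median of 3844 bases, against 693 bases in the other models. The typical exon was short, with a median over models of the median exon length of 125 bp in the long models and 231 bp in the others. Among other models with at least 10 exons that value was 124 bp, so the long models had exons of the size found in other multi-exon models. Across the long models, exon number and total exon length rose together (Spearman's rho = 0.78 over 379 models), while span was unrelated to exon number (rho = 0.01).

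Intron length set them apart. The longest intron had a median of 106161 bp in the long models, against 27561 bp in other models with at least 10 exons, and 211 of the 379 (55.7%) held an intron of 100000 bp or more, against 1.22% of all other models. The median intron within a model was also longer, at 7174 bp, against 2053 bp in other models with at least 10 exons. Exons covered a median of 0.952% of the span, against 3.16% in other models with at least 10 exons. In 43 long models (11.3%) a single intron took up over 50% of the span, against 28.9% of all other models. The longest intron took a median of 27.6% of the span in the long models. That value was 32.1% in other models with at least 10 exons and 26.9% in all other models, including those without an intron. Among long models with at least 5 introns, the longest was the first from the 5′ end in 17.3%, against 21.4% in the other models, and the second in 16.4%, against 13.7%. Both measures of intron length follow in part from the span that chose the models.

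**Figure D1:**
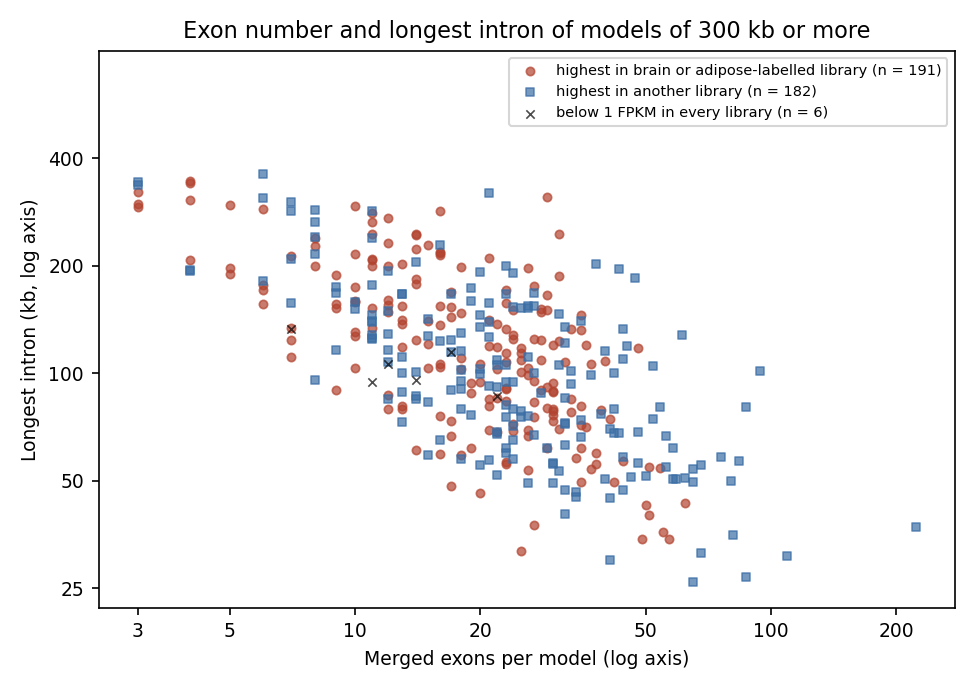
Merged exons per model (horizontal, log axis) against the longest intron in kb (vertical, log axis) for the 379 long models, 1 point each, marked by whether the highest level was in brain or the adipose-labelled library (191 models), in another library (182) or below 1 FPKM throughout (6). Models with few exons lie at the top left with introns above 100 kb, and TTN-5 with 223 exons lies at the far right.

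The extremes show how differently a long span can be reached. TTN-5, named for titin, the giant elastic protein of the sarcomere, had 223 exons and 82634 exon bases in 382289 bp on scaffold ScMYAQb_1770 of chromosome 1 (98569131 to 98951420, minus strand), and its longest intron was only 37028 bp. GDF11-1, named for a secreted growth factor of the TGF-beta superfamily, reached a closely similar span of 383480 bp with 3 exons and 1260 exon bases, because its second intron measured 336329 bp. EA44444 on chromosome 2 was more extreme, with 3 exons and 351 exon bases in 343611 bp, of which its first intron took 99.6%. The smallest total exon length was 291 bases in EA76517, spread over 4 exons and 303386 bp. Both were nonetheless at 1 FPKM or more in all 13 libraries, with a highest level of 24.4 FPKM in heart for EA44444 and 14.1 FPKM in kidney for EA76517. The longest intron of all, 362026 bp, was the first intron of EA57663 on chromosome 4. Among the 5 longest were also those of EA47186 (345360 bp), EA44444 (342148 bp) and GDF11-1.

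The greatest span was 902609 bp, in EA34617 on chromosome 7 (scaffold ScMYAQb_9761, 124797090 to 125699699, plus strand), which had 26 exons and 3763 exon bases. It was followed by EA03751 (827793 bp), EA31384 (810319 bp), EA11595 (797858 bp) and ZNF385B-2 (764183 bp), the last named for a zinc finger protein. EA01991, EA79576, EA60088, EA73052 and EA20089 completed the 10 longest, with the shortest of these, EA20089, at 693090 bp. In 7 of the 10 the highest level was in brain or the adipose-labelled library, against 51.2% of the expressed long models and 26.3% of the others. The highest levels of the 10 lay between 1.18 FPKM for EA03751 in kidney and 38.1 FPKM for EA34617 in brain. The median span was 364250 bp, with quartiles of 331570 and 430840 bp. The limit cut through a continuous range. The 3 models just inside it, EA69382, EA31263 and EA11954, spanned 300077, 300341 and 301121 bp with 48, 57 and 34 exons. Among those just outside it, EA21094 and EA35415 spanned 299568 and 299549 bp with 8 and 16 exons.

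All 379 long models lay on the 17 chromosomes, as did 94.0% of the other models. On the plus strand were 202 of the long models (53.3%), against 49.3% of the others. Chromosome 3 held the most, with 40. The density of long models ranged from 6.45 per 100 Mb on chromosome 17 and 7.15 on chromosome 8 to 22.01 on chromosome 6 and 22.4 on chromosome 10. Only 12 long models overlapped another long model, in 6 pairs, all on the same strand, so that the 379 models made up 373 separate loci. EA34617 contained the whole of EA35447, for example, and the exons of EA35447 were shared with it over 88.7% of their bases.

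Other models sat inside the long ones. In 187 long models the span held at least 1 complete other model, and EA03208 and EA77432 held the most, with 12 each. In all 352 other models lay wholly within an intron of a long model, and 269 of them (76.4%) had a single exon. Most were nearly silent, with 44 (12.5%) at 1 FPKM or more in a library. Single-exon models within such introns reached 1 FPKM in 8.92% of cases, against 10.8% of single-exon models elsewhere. The 83 models with at least 2 exons there did so in 24.1% of cases, against 79.5% elsewhere. These sets were not matched on exon number. Of all other models, 27.4% of those with fewer than 5 exons reached 1 FPKM, against 90.2% with at least 5 but fewer than 10. The highest of the models within introns was EA34939, a model of 2 exons on the strand opposite to its host EA34617. It was at 134 FPKM in brain, where the host was at 38.1 FPKM.

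Exons were shared with other models more widely than spans overlapped between long models. Of the 379, 126 (33.2%) shared at least 1 exon base with another model, 100 shared at least 10% of their exon bases and 24 shared at least 50%. The same shares were not computed for the other models, so whether sharing is more common in the long models was not tested. A read falling on shared bases matches both models and was left out by the counting, so the levels of these 126 models can be too low. Their median highest level was 12.5 FPKM, against 17.2 FPKM in the long models that shared none, among those at 1 FPKM or more.

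Nearly every long model was expressed. In 373 of 379 (98.4%) the highest library reached 1 FPKM, against 50.7% of all other models. Exon number went with this difference. Of other models with at least 10 exons 96.9% reached 1 FPKM, 79.2% of those with at least 2 exons did so, and 10.8% of single-exon models. In the class of 10 to 19 exons, 96.6% of the long models and 96.8% of the others reached 1 FPKM, and in the class of 20 to 39 exons 99.4% and 97.1%. The share of the long models was 80.5% at a limit of 5 FPKM, against 40.6% of all other models and 87.6% of those with at least 10 exons.

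The 6 long models below 1 FPKM were of different kinds. EA30898 and ATP2B3-2 had no count in any library. Over their whole exon length, a floor of 3 counts allows up to 0.154 FPKM and 0.0701 FPKM in the shallowest library. EA04081 reached 0.27 FPKM. These 3 shared 84.2%, 90.6% and 83.4% of their exon bases with a longer overlapping model. Since reads on shared bases were left out, the limits above are too low for EA30898 and ATP2B3-2. The level of EA04081 can be too low for the same reason. EA77856, at 0.906 FPKM, shared 11.8%. EA02497 (0.688 FPKM) and EA50091 (0.956 FPKM) shared none.

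Detection differed strongly between libraries. In brain 333 long models (87.9%) were at 1 FPKM or more, against 40.6% of the other models, and the adipose-labelled library held the same number. Ovary followed with 304 (80.2%) and gills with 247 (65.2%). The lowest shares were in liver, with 113 (29.8%) against 25.1% of the other models, and in skeletal muscle, with 34.8% against 24.99%. Blood cells came next, with 38.8% against 30.7%. These levels rest on assigned totals. The TMM factors of edgeR, an alternative scaling, were lowest in liver (0.288) and skeletal muscle (0.322), so levels there are higher under it. Detection in each library under TMM was not tested. Other models with at least 10 exons fell off less steeply, at 85.2% in brain, 68.2% in blood cells and 57.9% in liver. Brain and the adipose-labelled library were the 2 libraries in which the long models were detected more often than these multi-exon models. Only 62 long models (16.4%) reached 1 FPKM in all 13 libraries, against 19.6% of all other models and 46.7% of other models with at least 10 exons.

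**Figure D2:**
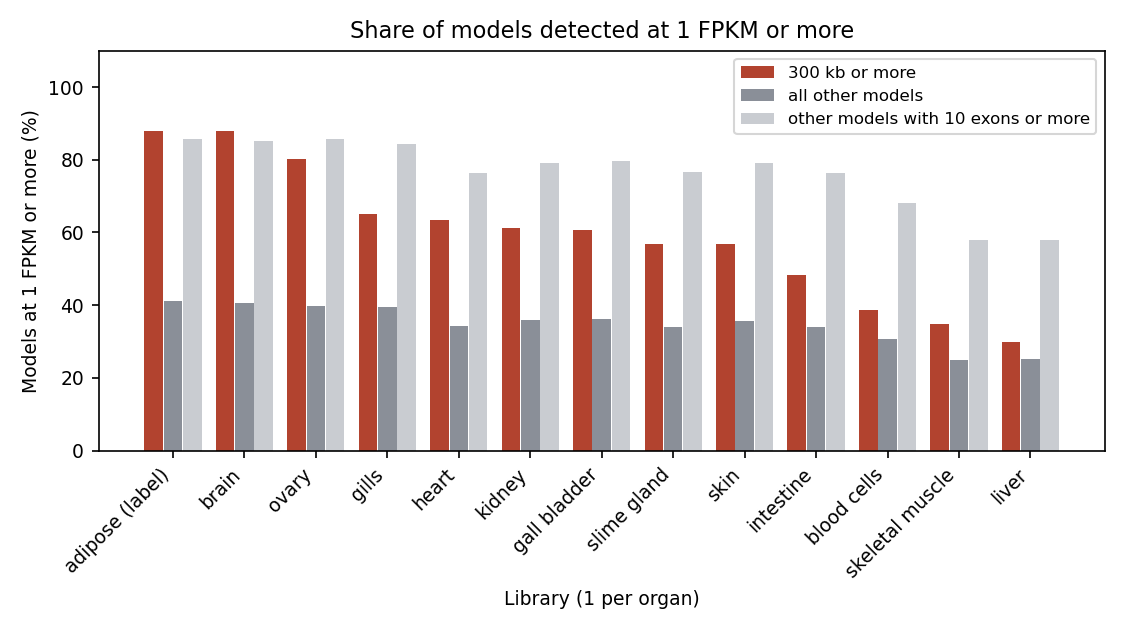
Percentage of models at 1 FPKM or more (vertical) in each library, for the 379 long models, all 37183 other models and the 6540 other models with at least 10 exons. Levels are scaled to assigned totals. The long models stand at 87.9% in brain and in the adipose-labelled library and fall to 29.8% in liver, below the multi-exon models in the other 11 libraries.

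Levels were moderate. The highest library of an expressed long model had a median of 15.2 FPKM, against 25.7 FPKM in the other expressed models and 33.3 FPKM in those with at least 10 exons. The share reaching 50 FPKM was 14.8% of the long models, 16.4% of all other models and 34.6% of those with at least 10 exons. Together the long models made up 2.72% of the assigned counts in the adipose-labelled library (exact 95% binomial interval on pairs of counts, 2.71 to 2.73) and 2.54% in brain (2.53 to 2.55). The share was 1.89% in heart, 0.683% in blood cells and 0.596% in liver (0.592 to 0.599). These intervals cover counting error only. In brain no single model contributed more than 0.106% of the counts, while in liver EA11233 alone gave 0.287%, in kidney EA39818 gave 0.292% and in skeletal muscle TTN-5 gave 0.479%. Without its largest contributor the share was 2.43% in brain and 0.309% in liver.

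The organ of highest level was brain or the adipose-labelled library for 191 of the 373 expressed long models (51.2%), against 26.3% of the other expressed models and 24.6% of those with at least 10 exons. By library, 135 long models (36.2%) were highest in the adipose-labelled one, against 15.3%, and 56 (15.01%) in brain, against 11%. Ovary led for 56 (15.01%), against 22.8%, gills for 39 (10.5%), against 13.8%, and heart for 23 (6.17%), against 4.57%. The remaining libraries led for between 4 long models in slime gland and 15 in gall bladder. In a whole organ, fewer cells of a type and less RNA per cell cannot be told apart. With the adipose-labelled library left out, brain led for 166 of 371 (44.7%), against 21.7% of the others. Ovary then led for 62 (16.7%), against 24%, gills for 44 (11.9%), against 14.9%, heart for 30 (8.09%), against 4.84%, and blood cells for 7 (1.89%), against 8.77%.

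These shares moved with the scaling of the libraries. With edgeR's TMM factors, 36.3% of the expressed long models were highest in brain or the adipose-labelled library, against 16.8% of the others, and skeletal muscle then led for 11.4% of the long models, against 12.1%, and liver for 8.03%, against 9.26%. Ovary led for 6.37% of the long models under TMM, against 11.5%, gills for 6.09%, against 6.80%, and heart for 10.5%, against 6.34%. Without the adipose-labelled library the TMM shares for brain were 31.8% and 14.2%. Of the 361 long models at 1 FPKM or more under both scalings, 235 kept the same library of highest level. The levels, leads and ratios of single models given below rest on assigned totals. Under TMM the median log2 ratio of brain was 0.76 over the expressed long models and 0.05 over all other expressed models. With assigned totals these medians were 1.20 and 0.42. The cDNA used to build the gene models included full-length transcripts of brain, and whether this bore on which models became long was not tested.

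**Figure D3:**
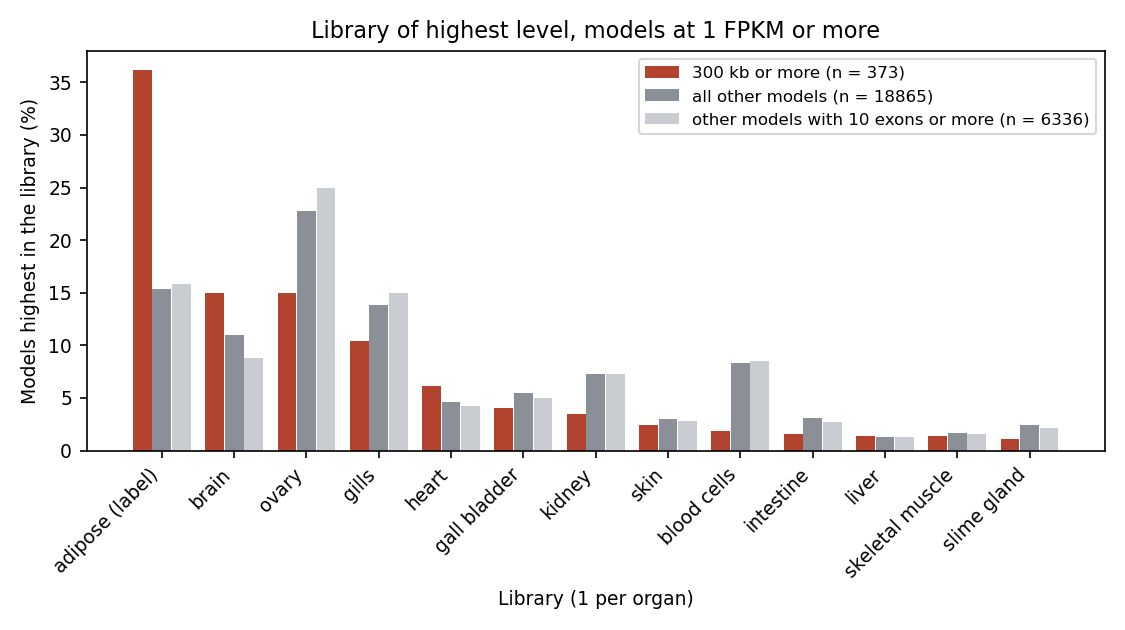
Percentage of expressed models (vertical) whose highest FPKM was in each library, for 373 long models, 18865 other models and 6336 other models with at least 10 exons, scaled to assigned totals. The adipose-labelled library (36.2%) and brain (15.01%) stand above the other models, and ovary and blood cells stand below them.

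The share of models highest in brain was higher in the classes of span above 200 kb than in those below. Without the adipose-labelled library it lay between 19% and 25.6% in each class of span up to 200 kb. It was 35.8% of 698 models from 200 to 300 kb, which lie outside the long models, 42.9% of 245 from 300 to 400 kb, 44.0% of 100 from 400 to 600 kb and 65.4% of 26 from 600 to 1000 kb. Among models with at least 10 exons alone it was 13.6%, 16.5%, 19.6% and 22.7% in the 4 classes from 1 to 200 kb and 33.5%, 42.5%, 41.6% and 65.4% in the 4 above. The share highest in ovary, also without the adipose-labelled library, did not change steadily with span. It was 12.7% below 1 kb and 27.4% from 10 to 50 kb. Among the long models it was 16.3% from 300 to 400 kb, 20% from 400 to 600 kb and 7.69% of the 26 above 600 kb. These shares by class rest on assigned totals and were not tested under TMM. The median of the highest level was 11.7 FPKM above 600 kb, 17.3 FPKM from 300 to 400 kb and 32.04 FPKM from 10 to 50 kb.

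**Figure D4:**
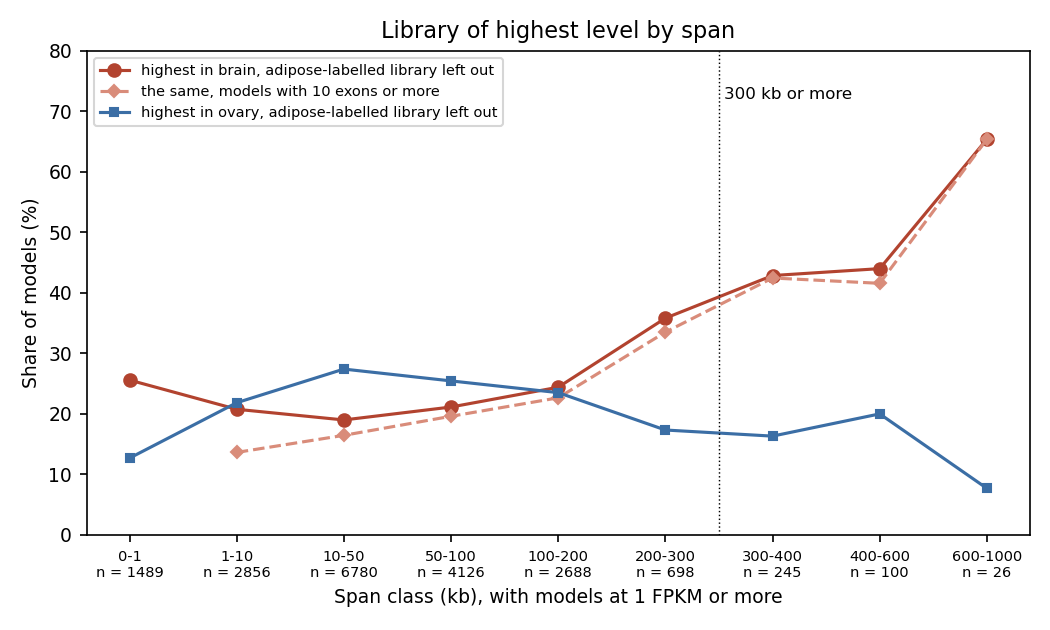
Share of expressed models (vertical, %) highest in brain or in ovary, by class of span (horizontal, kb, with the number of models at 1 FPKM or more), with the adipose-labelled library left out. The dashed line holds models with at least 10 exons only. The brain share is between 19% and 25.6% below 200 kb and 65.4% above 600 kb. The ovary share is 20% from 400 to 600 kb and 7.69% in the last class, which holds 26 models.

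Exon number divided the long models in this respect. Of the 314 expressed long models with fewer than 40 exons, 154 (49.0%) were highest in brain without the adipose-labelled library. In the classes of other models with fewer than 40 exons this share lay between 20.4% and 23.2%. Of the 57 long models with at least 40 exons, 12 (21.1%) were highest in brain, 14 in gills, 12 in ovary and 8 in heart. Of all other expressed models, 14.9% were highest in gills, 24.0% in ovary and 4.84% in heart. Other models with at least 40 exons were highest in brain in 26.2% of cases. The longest introns went the other way. Among the 50 long models with an intron of 200000 bp or more, 29 (58.0%) were highest in brain. The share was 44.2% of the 156 whose longest intron was from 100000 to 200000 bp, and 41.2% of the 165 under 100000 bp. Over all other expressed models it was 21.7%. The long models that shared no exon base with another model gave 43.6% (109 of 250), close to the 44.7% of all expressed long models.

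In terms of size, brain was at least 4 times the median of the other 12 libraries, with 1 FPKM added to both, in 131 of 373 expressed long models (35.1%), against 11.5% of the others. The adipose-labelled library passed the same limit in 139 (37.3%), against 12.1%, and heart in 29 (7.77%), against 3.74%. With the adipose-labelled library left out brain passed it in 139 of 371 (37.5%), against 12.6%. The median log2 ratio of brain was 1.20 in the long models and 0.42 in the others. In ovary, where 10.5% of the long models and 10.2% of the others passed, the medians were 0.66 and 0.57. Blood cells passed in 0.804% of the long models, against 3.46% of the others, with a median log2 ratio of -0.35, against 0.00. With assigned totals, the lowest medians of the long models were in liver, at -0.97 against -1.16 in the others, and in skeletal muscle, at -0.70 against -1.01.

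Organ specificity was measured with tau, which is 0 for a model at the same level in every library and 1 for a model found in a single library. The median tau of the expressed long models was 0.593, against 0.484 in the others and 0.393 in those with at least 10 exons. With every model that had a count included, the direction turned, at 0.599 in 377 long models and 0.669 in the others. Among the long models 70 (18.8%) had a tau of 0.8 or more, against 19% of the others and 11.2% of those with at least 10 exons, and a tau of 0.9 or more was found in 2.14%, against 7.70% of the others. With the adipose-labelled library left out 107 of 371 (28.8%) had a tau of at least 0.8, against 20.6% of the others. The expressed long models reached 1 FPKM in a median of 8 libraries, against 11 in the other expressed models. The most even of them, EA02313 (tau of 0.156), lay between 13 FPKM in skeletal muscle and 65.2 FPKM in brain.

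The most specific long model was EA39818 on chromosome 2, with 65 exons and a tau of 0.978. It was at 244 FPKM in kidney, against 0.808 FPKM in the adipose-labelled library, the next highest, and at 0.0292 FPKM in the median library. The ratio of kidney to the adipose-labelled library was 302 (exact 95% interval on pairs of counts, 249 to 366). This interval and those of the ratios below cover counting error only and not the scaling of the libraries. Kidney was the one library of the 13 in which it reached 1 FPKM.

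The highest level of any long model was that of EA11233 on chromosome 10, at 538 FPKM in liver, 55.5 FPKM in kidney, 1.83 FPKM in ovary and 0.115 FPKM in skeletal muscle, the lowest. Liver exceeded kidney 9.69 times (9.37 to 10.02) with assigned totals. The TMM factor was 0.288 in liver and 1.29 in kidney, so this ratio is larger under TMM. The highest in brain was EA41685 with 346 FPKM, beside 333 FPKM in the adipose-labelled library, 96.6 FPKM in blood cells, a median of 65.0 FPKM and 8.13 FPKM in liver, so it was expressed throughout. It was also the highest long model in the adipose-labelled library and in blood cells. EA40639, the highest of those whose own maximum was in the adipose-labelled library, was at 249 FPKM there, beside 226 FPKM in brain and 5.30 FPKM in gills, the next. EA25000, with 194 FPKM in brain and 188 FPKM in the adipose-labelled library, was at 22.6 FPKM in heart and 0.0422 FPKM in blood cells. None of these models has a symbol in the tables used here.

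Heart had 3 of the 10 highest, while 6.17% of the expressed long models and 4.57% of the others were highest there. EA79362 was at 298 FPKM in heart, 25.4 FPKM in brain, 20.7 FPKM in the adipose-labelled library and a median of 2.55 FPKM, a ratio of heart to brain of 11.7 (11.2 to 12.2). EA83708 was at 208 FPKM in heart, 8.64 FPKM in gall bladder and 0.141 FPKM in skeletal muscle. With assigned totals EA07589 was at 173 FPKM in heart and 83.5 FPKM in skeletal muscle. The TMM factor was 1.01 in heart and 0.322 in skeletal muscle, so the order of these libraries depends on the scaling. The first 2 were thus low in skeletal muscle of the tongue, at 2.27 FPKM for EA79362, and the third was not. EA19624 led in intestine with 181 FPKM and was at 118 FPKM in kidney. EA54596 led in gills with 157 FPKM, beside 77.7 FPKM in gall bladder. EA46309 led in skin with 152 FPKM, and its 121 FPKM in the adipose-labelled library and 96.6 FPKM in brain were close behind. EA10819 led in gall bladder with 137 FPKM. Of the long models with their own maximum in blood cells, EA07368 was the highest at 66.8 FPKM. Of those with it in slime gland, EA11954 was the highest at 32.4 FPKM, beside 30.2 FPKM in skeletal muscle. The TMM factor of slime gland was 0.664, so the lead of slime gland for EA11954 also depends on the scaling.

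Symbols were paired only with models of chromosome 1 in the tables used here. Of the 28 long models there 25 had one, and the 347 long models with neither a symbol nor a family name could not be sorted by role. Of the 22 in the role lists 21 reached 1 FPKM, against 98.4% of all long models and 50.7% of the others, and 13 were highest in brain or the adipose-labelled library, against 51.2% of the expressed long models and 26.3% of the others. Without the adipose-labelled library 9 were highest in brain, against 44.7% of the expressed long models and 21.7% of the others.

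With assigned totals, the 6 models of synapse, vesicle and neuronal signalling were all highest in brain or the adipose-labelled library. In these libraries 51.2% of the expressed long models and 26.3% of the others were highest. Without the adipose-labelled library 5 of the 6 were highest in brain, against 44.7% of the expressed long models and 21.7% of the others. Brain was at least 4 times the median of the 11 others in 5 of the 6, against 37.5% of the expressed long models and 12.6% of the others. PTPRN2-2, named for a receptor-type phosphatase of dense-core vesicles, was at 111 FPKM in brain and 114 FPKM in the adipose-labelled library, against 18.8 FPKM in ovary, a median of 1.01 FPKM and 0.0308 FPKM in liver. Its 20 exons spanned 363254 bp. GPHN-2, named for gephyrin, the scaffold that anchors inhibitory receptors at synapses, was at 45.4 FPKM in brain and 43.1 FPKM in the adipose-labelled library, against 4.86 FPKM in blood cells and a median of 0.634 FPKM. Brain exceeded blood cells 9.35 times (8.31 to 10.5). NLGN1-1, named for neuroligin, a postsynaptic adhesion protein, was at 31.9 FPKM in brain and 36.0 FPKM in the adipose-labelled library, against 2.06 FPKM in heart and 0.0917 FPKM in liver. Brain stood 15.4 times above heart (12.1 to 20.1). NLGN1-1 needed only 8 exons for its 453096 bp, with a first intron of 199619 bp.

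The other 3 of this group were less restricted. CADPS-1, named for the calcium-dependent activator of vesicle secretion, was at 13.4 FPKM in brain, 13.7 FPKM in the adipose-labelled library and 7.75 FPKM in kidney, a ratio of brain to kidney of 1.73 (1.54 to 1.93). MPDZ-1, named for a scaffold protein with many PDZ domains, was at 31.8 FPKM in brain and 23.8 FPKM in kidney, and its lowest value was 1.53 FPKM in liver. RGS7-2, named for a regulator of G-protein signalling, was barely detected, at 1.16 FPKM in the adipose-labelled library, 1.07 FPKM in ovary and 0.773 FPKM in brain. The first 2 of these rested on 45 and 51 counts, and their ratio of 1.09 had an interval from 0.564 to 1.92, so they were not told apart at this depth. In skeletal muscle RGS7-2 was at 0.353 FPKM. The TMM factor was 0.322 there and 1.63 in the adipose-labelled library, so the highest library of RGS7-2 also depends on the scaling.

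The counted levels of the 3 calcium handling models were at most 5.78 FPKM. ITPR3, named for a calcium channel of the endoplasmic reticulum that opens on inositol trisphosphate, was at 5.78 FPKM in ovary, 4.74 FPKM in gills and a median of 1.003 FPKM. ATP2B1-1, named for a plasma membrane calcium pump, was at 4.37 FPKM in the adipose-labelled library, 3.59 FPKM in slime gland and 3.53 FPKM in brain. ATP2B3-2, named for another such pump, lay within the span of ATP2B1-1 on the same strand and, as above, had no count. These models share 90.6% of the exon bases of ATP2B3-2, so their levels were not measured separately.

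Both secreted ligands were highest in liver, where 1.34% of the expressed long models and 1.31% of the others were highest. GAS6, named for a ligand of receptor kinases that clear dying cells, was at 127 FPKM in liver, 40.5 FPKM in gall bladder, 34.4 FPKM in ovary, a median of 5.77 FPKM and 0.231 FPKM in skeletal muscle. Liver was 3.15 times gall bladder (2.9997 to 3.31). GDF11-1 was at 67.1 FPKM in liver, 34.3 FPKM in brain, 20.7 FPKM in the adipose-labelled library, a median of 4.09 FPKM and 0.188 FPKM in blood cells. It was the one ligand at 4 times the median of the 11 others in brain. With these 2 models, 2 of the 5 long models highest in liver carried symbols.

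Of the kinase, lipid and immune signalling models, PLD1-1 and SIK3-2 were broad. PLD1-1, named for phospholipase D, was at 33.4 FPKM in gall bladder, 27.5 FPKM in slime gland, a median of 19.05 FPKM and 1.59 FPKM in skeletal muscle. SIK3-2, named for a salt-inducible kinase, lay between 0.819 FPKM in skeletal muscle and 7.65 FPKM in ovary.

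Among the transcription and nucleic acid binding models, GLIS3, named for a Krüppel-like zinc finger factor, was at 7.57 FPKM in the adipose-labelled library, 3.96 FPKM in brain and 3.05 FPKM in gall bladder, and had no count in slime gland. The ratio of the adipose-labelled library to brain was 1.91 (1.48 to 2.45). Over the 244 long models at 5 FPKM or more in brain, which GLIS3 did not reach, this ratio had a median of 1.06 and a maximum of 2.26. ZNF385B-2 was at 4.53 FPKM in the adipose-labelled library, 3.32 FPKM in ovary and 3.15 FPKM in brain, with a ratio of ovary to brain of 1.06 (0.819 to 1.36). AC097634.4-2 was at 10.5 FPKM in gall bladder and 9.91 FPKM in gills. NFIA-1, named for a nuclear factor I protein and named here after its values were seen, was at 10.5 FPKM in slime gland, 6.54 FPKM in kidney and at least 1.32 FPKM in every library.

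The last group joined lipid transport, cytoskeleton and other roles. TTLL5, named for an enzyme that adds glutamate to tubulin, was at 15.5 FPKM in brain and 18.3 FPKM in the adipose-labelled library, against 4.93 FPKM in gall bladder, and brain was 3.15 times gall bladder (2.74 to 3.63). OSBPL6-1, named for an oxysterol-binding protein, was at 7.65 FPKM in the adipose-labelled library, 4.18 FPKM in brain and 3.13 FPKM in heart. VPS13D-1, named for a lipid transfer protein, NAV2-2, named for a neuron navigator, and CABIN1-2, named for an inhibitor of calcineurin, were at most at 6.42 FPKM, and their 2 highest libraries other than the adipose-labelled one were within 1.25 times of each other.

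Of the models outside these lists with a symbol, named here after their values were seen, FN1-4 was the highest. It is named for fibronectin, the matrix glycoprotein, and had 109 exons. FN1-4 was at 140 FPKM in ovary, 47.2 FPKM in heart, 45.7 FPKM in gills and a median of 19.5 FPKM, with 0.0289 FPKM in blood cells. TTN-5 was at 58.0 FPKM in skeletal muscle, 50.2 FPKM in slime gland, 30.4 FPKM in heart and 5.56 FPKM in gills, and at 0.26 FPKM or less in the other libraries. With assigned totals skeletal muscle exceeded slime gland 1.16 times (1.14 to 1.17, counting error only). The TMM factor was 0.322 in skeletal muscle and 0.664 in slime gland, so this ratio is larger under TMM.

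**Figure D5:**
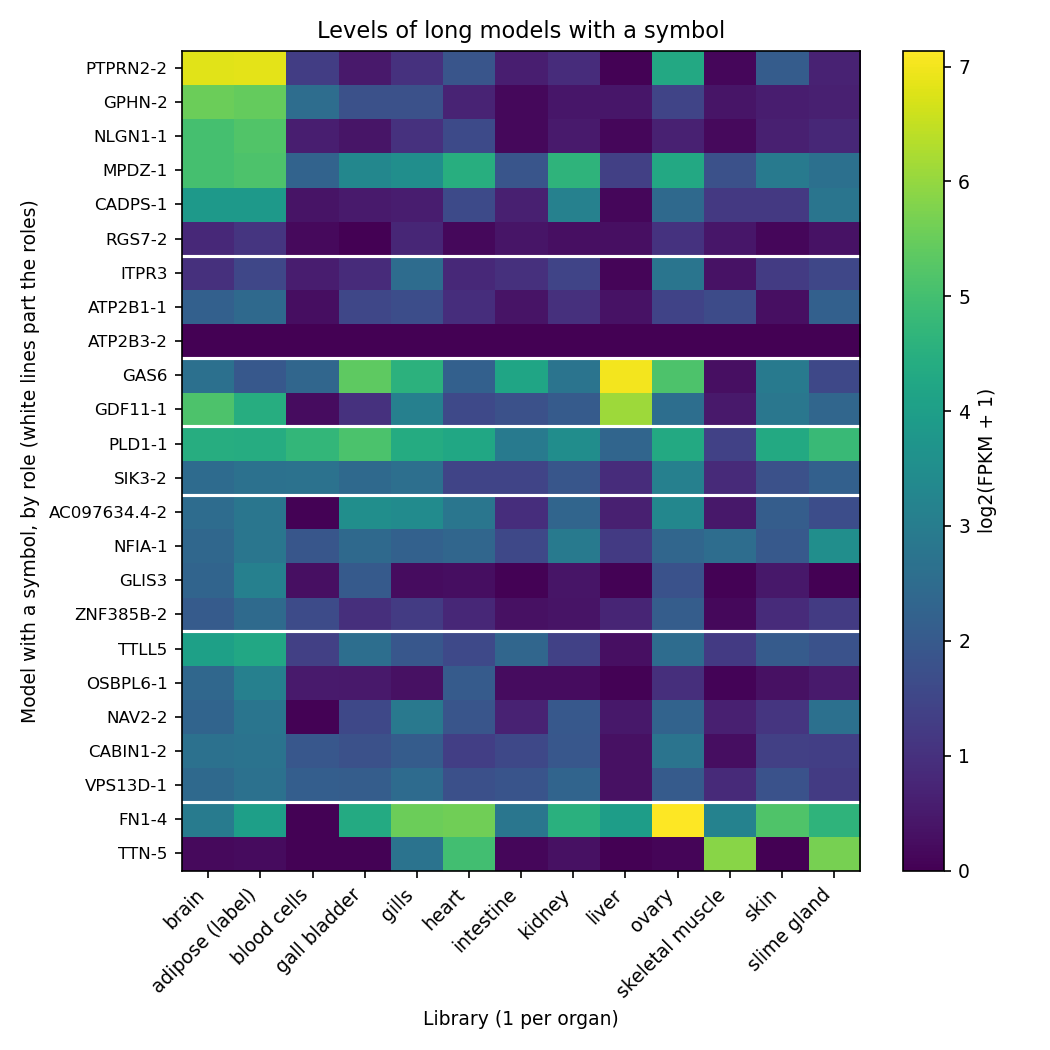
Level of 24 long models with a symbol as log2(FPKM + 1) (colour) in the 13 libraries (columns), grouped by role (rows, parted by white lines). PTPRN2-2, GPHN-2 and NLGN1-1 are bright in brain and the adipose-labelled library, GAS6 and GDF11-1 in liver, FN1-4 in ovary and TTN-5 in skeletal muscle, slime gland and heart.

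A few long models without a symbol belong to a gene family with named genes in other vertebrates, and 3 of these were broadly expressed. EA46075 and EA60285, in the families of EXOC6 and EXOC2, subunits of the exocyst that tethers vesicles to the plasma membrane, were highest in brain (31.0 FPKM) and gills (24.4 FPKM) and reached 1 FPKM in all 13 libraries. EA30953, in the family of the kinase MAP3K1, was at 44.5 FPKM in gills and 24.9 FPKM in gall bladder.

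Of 13 models with the same root symbol as a long model, 5 lay within its span on the same strand and shared most of their exon bases with it. GPHN-1 and GPHN-3 shared 100% and 76.6% of theirs with GPHN-2, and they reached 0 and 0.0804 FPKM. CADPS-2, VPS13D-3 and ZNF385B-3 shared 90.2%, 99.5% and 82.5% with CADPS-1, VPS13D-1 and ZNF385B-2 and stayed below 0.2 FPKM. Since reads on shared bases were left out by the counting, the levels of these 5 models were not measured separately. TTN-2 overlaps TTN-5 on the same strand and shares 10.8% of its exon bases with it. TTN-2 had 99 exons in 137763 bp and 5.73 FPKM in skeletal muscle, a level that can be too low for the same reason. Near FN1-4, FN1-5 and FN1-6 lay on the same strand and were highest in liver, at 7.08 and 17.4 FPKM, where FN1-4 was at 14.6 FPKM.

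Of 30 symbols of genes known to be long in human, 29 had at least 1 model, and 8 of these had a model among the long ones, namely CADPS-1, GLIS3, GPHN-2, NAV2-2, NLGN1-1, PTPRN2-2, RGS7-2 and ZNF385B-2. These 8 were 27.6% of the listed symbols with a model, against 2.92% of all 857 symbols. The longest model per listed symbol had a median span of 217648 bp, against 67145 bp for the longest model of every symbol. CADM2-2, named for a synaptic adhesion molecule, came nearest to the limit from below, at 277617 bp, and was at 159 FPKM in the adipose-labelled library. At the short end, LHFPL3-2 covered 3219 bp with 2 exons. Of 32 models of the list at 1 FPKM or more, 13 (40.6%) were highest in brain without the adipose-labelled library, against 188 of 954 models with a symbol (19.7%). The list was chosen with earlier results of these data known, and it holds symbols of the synapse group above. These shares therefore describe the list and are not independent of how it was chosen.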

How the data were processed

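Strand-specific paired reads came from 13 organs with a single library each. STAR (2.5.2b) was used by the authors for alignment, and the file header names featureCounts 1.6.1 for counting over exons. The deposited table holds unnormalised counts for 37562 models. The command set neither paired nor strand counting, and reads on several places or models were left out by default. Of the counts from 1 to 4, 83.6% were even, so counting intervals (95%, exact) were set on pairs of counts. The models were built by the authors from organ transcriptomes and full-length cDNA of brain.

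Span, exons merged over transcripts, introns and FPKM were computed from the table, whose coordinates are scaffold positions. Chromosomes of 19 scaffolds, symbols and families came from the study's source tables. Long models and lists were chosen with earlier results of these data known. Named are long models with a symbol, the 10 longest, the 10 highest, the highest of each library, 3 on each side of the limit, the extremes of exon number, exon length and introns, and those holding most models. Models with a family name but no symbol, single examples and the even or low ones were named after their values were seen. A few models are not reported here. Tau and ratios to the median library used log2(FPKM + 1), and ratios with an interval compare FPKM of 1 model in 2 libraries with nothing added. Alternatives were TMM and size-factor scaling (edgeR 4.0.16, DESeq2 1.42.0) and other limits, filters and comparison sets. The functions were tested on simulated data (R 4.3.3, Python 3.11.15).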

Additional observations from a re-analysis of the deposited data

How the results depend on the processing

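No paired analysis was possible because each organ is represented by 1 library, and no replicate could be left out. Differences below are the percentage of long models minus that of the other models. The difference in the share at 1 FPKM or more, 47.7 points, was 46.1 with TMM totals, 46.0 with DESeq2's size factors or with totals without the 10 highest models, 45 at a span of 200000 bp, 30.7 at 0.1 FPKM, 39.8 at 5 FPKM and 46.2 at 10 counts. Against other models with at least 10 exons it was 1.54 and against those with at least 2000 exon bases 5.08. The difference in the share highest in brain or the adipose-labelled library, 24.9 points, was 19.4 with TMM, 18.7 with DESeq2's size factors, 18.8 from 200000 bp and 41.4 from 500000 bp. With the adipose-labelled library left out as well, a combination chosen after seeing the data like the other pairs here, it was 17.7 with TMM and 16.7 with DESeq2's factors. The difference in the share with brain at 4 times the median, 23.7 points, was 18 with TMM, 17.9 with DESeq2's factors, 16 from 200000 bp, 18.5 and 18.4 with these factors and without the adipose-labelled library, 18.6 with TMM against models with at least 10 exons and 29.7 at a fold of 2 without the adipose-labelled library.

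The difference in median tau, 0.11, was 0.15 with DESeq2's factors, 0.20 against models with at least 10 exons, 0.16 against those with at least 2000 exon bases and 0.0515 on linear FPKM. It reversed to -0.0696 when every model with a count entered, and the cause was not tested. The median exon number was 36 with exons as listed. Long models that shared no exon base held 1.76% of the counts of the adipose-labelled library, 1.64% of brain and 0.214% of liver. Of 135 alternative values in all, 74 stayed within the interval or fold set around the reported value, 60 moved further and 1 was counted as reversed. By sign alone, 127 kept the sign of the reported value. The difference in the share with a tau of at least 0.8 was -0.237 points, within its interval of 4.09 points to either side. Its changes of sign were not counted as reversed. Its alternatives ran from -17.4 points with every model that had a count to 8.22 without the adipose-labelled library.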
